A study of Drosophila melanogaster with 8 samples.

Results

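The mRNAs of the nuclear genes for mitochondrial complex I were followed in synaptosomes and in the head homogenate from which these were prepared, in adult Drosophila melanogaster. The genes were those of the deposited gene count table whose FlyBase symbol begins with ND-. They numbered 34 of the 10669 genes in the table, and 33 of them were among the 8159 genes with enough counts to be tested. The annotation lists 40 such symbols. The other 6, ND-MNLL and 5 paralogs, were not analysed here.

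Complex I is the NADH dehydrogenase of the inner mitochondrial membrane. It passes electrons from NADH to ubiquinone and pumps protons, and nerve terminals depend on such respiration to power transmitter release and vesicle recycling. The complex has a matrix arm, built of a module that oxidizes NADH (N) and a module that reduces ubiquinone (Q), and a membrane arm with the proton pumps. The core subunits of the matrix arm carry the flavin and the iron-sulphur clusters and come from nuclear genes, the pump subunits come from the mitochondrial genome, and the accessory subunits surround this core. Of the 33 genes tested, 7 encode core subunits, 25 encode accessory subunits including the acyl carrier protein ND-ACP, and 1, ND-MLRQ, is the homologue of human NDUFA4, which has been assigned to complex IV.

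Synaptosomes are sealed nerve endings, torn off when tissue is homogenized, that keep synaptic vesicles, mitochondria and a piece of the membrane they face. In this study the flies were wild type (w1118 per the study's methods), 3 days old and of both sexes, grown at 25 °C, and no treatment set the groups apart. The layers of a Percoll gradient that held synaptosomes, with membranes in 1 of them, were pooled, and a separate layer of mitochondria was not taken. Input was the crude head homogenate after straining. The labels describe frozen head powder whereas the study's methods describe fresh heads for synaptosomes. Each group had 4 libraries: synaptosome 1, 2, 3 and old, and input 1, 2, 3 and old. The word old stands only in the name of a count column of each group, and the sources used here do not say what it means, so these libraries are shown apart throughout. No sample title carries that word, and the labels list a sample numbered 4 in each group that has no count column of that number. Whether the libraries named old are those samples is not stated. Per the study's methods, each synaptosome sample was divided between RNA and proteomics, and the proteomics compared biological replicates. Which libraries belong to those replicates is not stated. The labels do not say whether libraries came from separate collections of flies, so a p-value here reflects only how these libraries vary, and that variation may be technical.

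Each read marked the polyadenylated 3′ end of a transcript, so that counts are per transcript end and need no scaling by length. Synaptosome libraries held 1029666 to 9397652 counts and input libraries 7940909 to 16865581. Over all tested genes, pairs of synaptosome libraries correlated less in log2 level (r from 0.597 to 0.622) than pairs of inputs (r from 0.827 to 0.912). All 10 neuronal marker genes had enough counts to be tested, and their summed share of counts was 0.0335 to 0.0503% in synaptosomes 1 to 3 and 0.0122% in synaptosome old, against 0.0716 to 0.127% in inputs 1 to 3 and 0.0306% in input old. With 8 libraries 0 of the 10 were called higher and 2 lower, beside 0.944% and 4.13% of all genes. The fitted log2 fold change was above 0 for 4 of them, and its median was −0.26, beside −0.35 over all genes. Photoreceptor markers took 2.22 to 3.90% in synaptosomes 1 to 3 and 9.79% in synaptosome old, against 5.44 to 7.82% in inputs 1 to 3 and 5.96% in input old. Of these 11 genes 8 were called lower in synaptosomes and 0 higher, beside 4.13% and 0.944% of all genes. The sum in synaptosome old was nearly all Arr2 (85357 CPM) and Arr1 (19824 CPM), and the next marker, trpl, was at 578 CPM. Cuticle markers took 1.69 to 2.07% in synaptosomes 1 to 3 and 0.316% in synaptosome old, against 0.316 to 0.398% in inputs 1 to 3 and 0.224% in input old. This sum was nearly all Cpr72Ec, which averaged 14509 CPM in synaptosomes, where the next marker, Acp65Aa, averaged 134 CPM. Of 5 cuticle markers tested 3 were called higher and 0 lower, beside 0.944% and 4.13% of all genes. For comparison, 1 of 8 glial markers was called higher and 0 lower, and 0 of 10 muscle markers higher and 2 lower. Among 5 fat body markers 0 were called in either direction. Among the cuticle markers the values were mixed. Cpr64Ad had a log2 fold change of −3.51 without passing, and resilin, not tested, had no synaptosome count. In such bulk samples, less of an mRNA per cell, fewer cells of a type and another place of the mRNA within the cell cannot be told apart.

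Complex I mRNAs were abundant in both fractions. Their mean level, in CPM (counts scaled to the TMM-adjusted library total), had a median of 365.9 CPM over the 33 genes in synaptosomes and 585.1 CPM in input, against 20.0 and 25.8 CPM over all genes tested. The order of the genes by level was similar in both fractions, with a Spearman correlation of 0.889 between the group means. This describes 33 genes from the same libraries and is not a test. The most abundant member in both fractions was ND-AGGG, which ranked 7 among all tested genes by mean level in synaptosomes and 37 in input. Next in synaptosomes came ND-B14.5B, ND-39, ND-PDSW and ND-51.

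**Figure D1:**
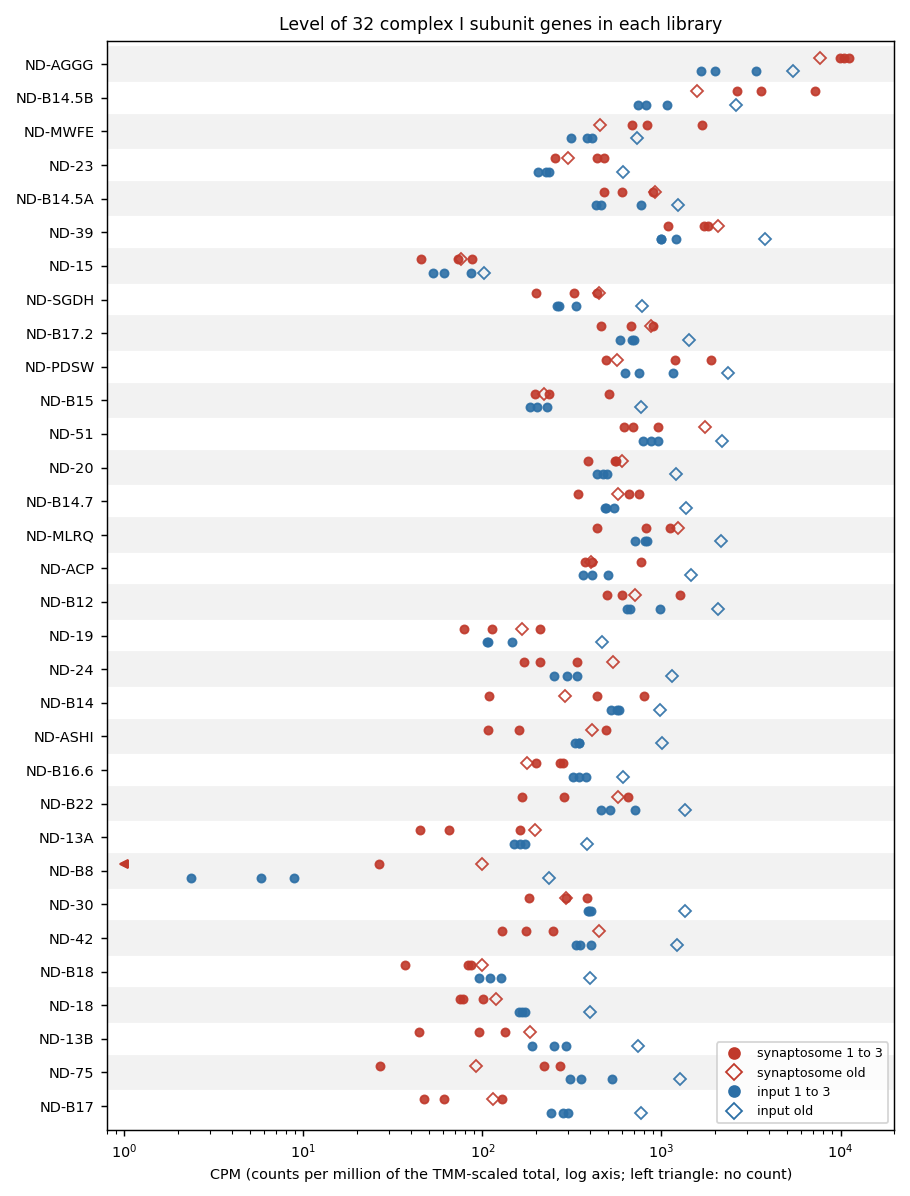
Level of 32 of the 33 tested complex I genes in each library, in CPM on a log axis, with genes ordered by fold change from the highest at the top. Each gene has synaptosome libraries (red) above input libraries (blue). Filled circles are libraries 1 to 3, open diamonds the libraries named old, and the red triangle at the left edge marks the 2 synaptosome libraries without a count of ND-B8. The open blue diamond of input old lies right of the 3 filled blue circles for all 32 genes.

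In the comparison of synaptosomes with input over all 8 libraries, 1 complex I gene was called higher and 1 lower, at an adjusted p under 0.05 in edgeR's quasi-likelihood test with Benjamini-Hochberg adjustment over all genes tested. Of all tested genes, 0.944% were called higher and 4.13% lower. The median log2 fold change over the 33 genes was −0.48, beside −0.35 over all 8159 genes. The fitted value was below 0 for 28 of the 33, beside 5087 of the 8159. At an unadjusted p under 0.05, 2 of the 33 were higher and 8 lower, where 4.44% and 9.85% of all genes were. DESeq2 called 1 member higher and 1 lower, where it called 3.16% of all genes higher and 7.18% lower. Without both libraries named old, 2 members were called higher and 0 lower, beside 1.72% and 6.14% of all genes. At an unadjusted p under 0.05, 4 members were then higher and 4 lower, beside 4.96% and 15.9% of all genes. The median log2 fold change over the 33 genes was then 0.036, whereas that over all genes was −0.48.

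ND-AGGG, homologue of the accessory subunit NDUFB2 of the distal membrane arm, was the member called higher. It lies on chromosome 3L, from 24976254 to 24977118 (dm6), with a coding length of 282 bases. Its level was 11148, 10482, 9919.6 and 7695 CPM in synaptosomes 1, 2, 3 and old, against 2001, 3393, 1669.8 and 5414 CPM in inputs 1, 2, 3 and old. Every synaptosome library was above every input library, and the input library nearest to them was the one named old. ND-AGGG was the only member without overlap in that direction, which 2.99% of all tested genes showed. It averaged 9811 ± 1497 CPM in synaptosomes, against 3119 ± 1702 CPM in input (SD, n = 4 each), and the log2 fold change was 1.65 ± 0.42 (approximate SE) with an adjusted p of 0.049 over all genes. Without the libraries named old the log2 fold change was 2.16 ± 0.32 with an adjusted p of 0.0356. The call was lost on leaving out any 1 of synaptosomes 1, 2 and 3 or of the 4 inputs (log2 fold change 1.50 to 2.05, adjusted p 0.0663 to 0.131) and kept without synaptosome old. In the fits that lost it, 0 to 12 of all genes were called higher and 1 to 20 lower, against 77 and 337 with 8 libraries. It was also lost with the replicate block (1.81, adjusted p 0.0599) and with a term for the libraries named old (1.76, adjusted p 0.0548).

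ND-B14.5B, homologue of NDUFC2 of the proximal membrane arm, had the next largest fold change. Its level was 7178, 2650.2, 3602.5 and 1569.6 CPM in synaptosomes 1, 2, 3 and old, against 816, 1077, 737 and 2615.5 CPM in inputs 1, 2, 3 and old. Among the numbered libraries every synaptosome value exceeded every input value, whereas among the libraries named old the input was the higher. With 8 libraries its log2 fold change was 1.52 ± 0.55, short of the threshold (adjusted p 0.185), and without the libraries named old it was 2.35 ± 0.42 and passed (adjusted p 0.0487), which it did in 1 of 17 alternative settings.

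ND-MWFE, homologue of NDUFA1 and also of the proximal membrane arm, had 1679.9, 826, 688 and 451 CPM in synaptosomes 1, 2, 3 and old, against 382, 312, 409 and 728 CPM in inputs 1, 2, 3 and old. It showed the same order as ND-B14.5B, with the synaptosome libraries above the inputs among those numbered and below among those named old. Its log2 fold change was 0.99 ± 0.46 with 8 libraries (adjusted p 0.359) and 1.53 ± 0.39 without the libraries named old (adjusted p 0.0504), so that it passed in neither. The gene overlaps Nrk on the same strand and TppII on the opposite strand, and reads of overlapping transcripts on 1 strand cannot be assigned with certainty. With ND-AGGG, ND-B14.5B and the core subunit ND-23, it was 1 of the 4 members for which synaptosomes 1 to 3 all exceeded inputs 1 to 3, a pattern of 6.79% of all genes tested in these libraries.

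ND-B17, homologue of NDUFB6 of the distal membrane arm, was the member called lower. It lies on chromosome 2L, from 15749319 to 15751078, with a coding length of 501 bases. Its level was 129, 47.3, 60.7 and 114 CPM in synaptosomes 1, 2, 3 and old, against 299, 282, 242 and 772 CPM in inputs 1, 2, 3 and old. All synaptosome libraries lay below all inputs, and input old was the highest library. It averaged 87.9 ± 40.0 CPM in synaptosomes, against 399 ± 249.7 CPM in input (SD, n = 4 each), and the log2 fold change was −2.18 ± 0.51 (adjusted p 0.049). Without the libraries named old it was −1.79 ± 0.45, with an adjusted p of 0.0504, just above the threshold. This call too was lost on leaving out any 1 of synaptosomes 1, 2 and 3 or of the 4 inputs (−2.42 to −1.64, adjusted p 0.0652 to 0.130) and kept without synaptosome old. In the fits that lost it, 1 to 20 of all genes were called lower.

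Besides ND-B17, 5 members had all 4 synaptosome libraries below all 4 inputs, namely ND-75, ND-13B, ND-18, ND-30 and ND-B16.6. These 6 of 33 stand beside 14.5% of all genes tested. Among the numbered libraries alone 8 of 33 did so, beside 28.1% of all genes. None of the 5 passed the test with 8 libraries.

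Of the members with the smallest fold changes, ND-75, homologue of the iron-sulphur core subunit NDUFS1, had 26.8, 221, 271 and 92.1 CPM in synaptosomes 1, 2, 3 and old, against 308, 526, 353 and 1263.5 CPM in inputs 1, 2, 3 and old. Its synaptosome libraries differed widely among themselves, synaptosome 1 being the lowest, and at −2.01 ± 0.69 its log2 fold change was short of the threshold (adjusted p 0.149). ND-13B, homologue of NDUFA5 in the Q module, had 133, 95.5, 44.5 and 185 CPM in synaptosomes 1, 2, 3 and old, against 189.7, 294.5, 251 and 744 CPM in inputs 1, 2, 3 and old (log2 fold change −1.69 ± 0.55, adjusted p 0.125). ND-18, homologue of NDUFS4 in the N module, had 75.1, 78.0, 101 and 119 CPM in synaptosomes 1, 2, 3 and old, against 167, 173, 160.4 and 397 CPM in inputs 1, 2, 3 and old. Both groups of ND-18 were narrow apart from input old, and the log2 fold change was −1.26 ± 0.43 (adjusted p 0.142). ND-B18, homologue of NDUFB7 of the distal membrane arm, had 37.1, 83.3, 86.1 and 99.5 CPM in synaptosomes 1, 2, 3 and old, against 95.2, 127, 109.98 and 399 CPM in inputs 1, 2, 3 and old. Here synaptosome old overlapped the inputs, and the log2 fold change was −1.26 ± 0.55 (adjusted p 0.309).

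**Figure D2:**
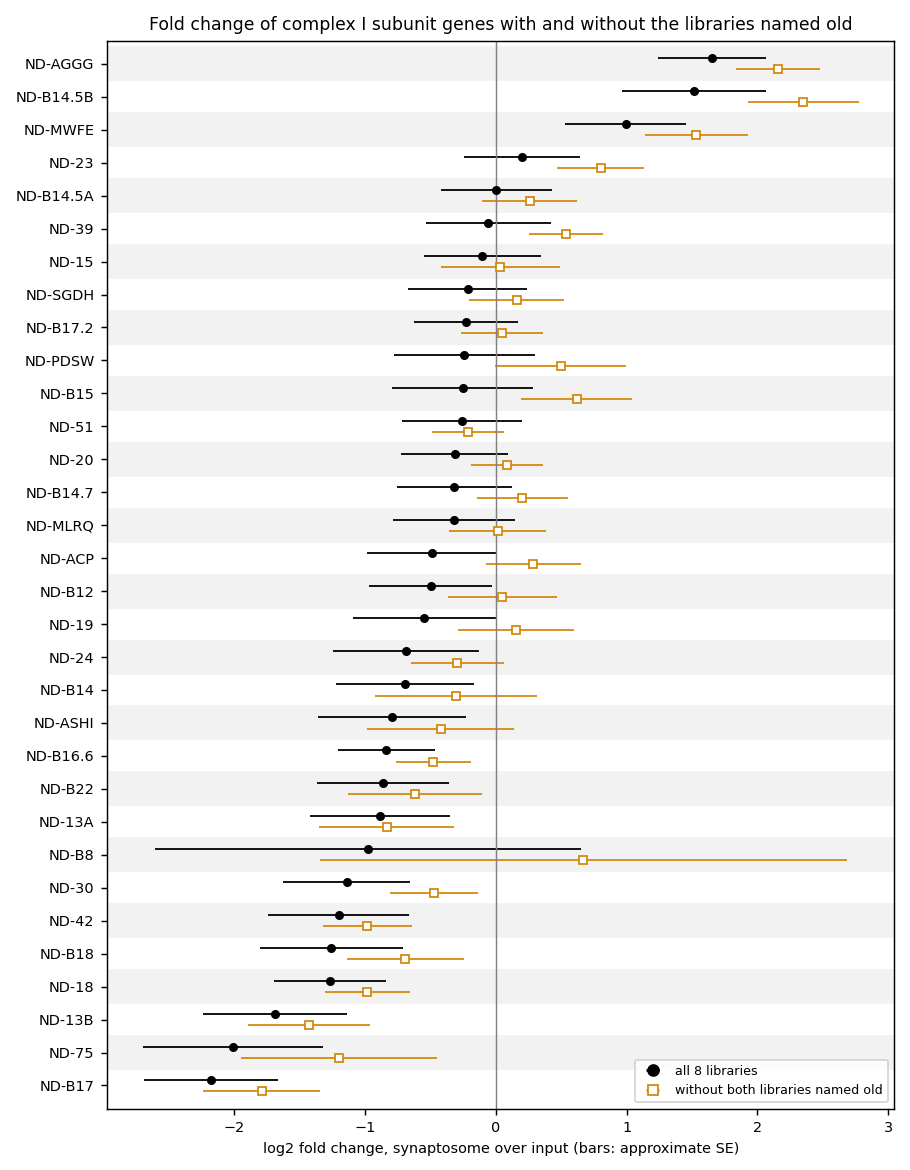
Log2 fold change of synaptosome over input with its approximate SE for the same 32 genes, in the same order. Black circles use all 8 libraries and open orange squares leave out both libraries named old. For all 32 genes the orange square lies right of the black circle, and the median over the 33 tested genes was 0.036 without those libraries and −0.48 with all 8.

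Of the 7 core subunits of the matrix arm, 0 passed in either direction with edgeR or DESeq2. With 8 libraries the fitted value was below 0 for 6 of these subunits, beside 5087 of all 8159 genes. Their median log2 fold change was −0.37 with 8 libraries and −0.25 without the libraries named old. At an unadjusted p under 0.05, 2 of them, ND-75 and ND-30, were lower with 8 libraries. Their summed share of counts was 0.249, 0.288, 0.267 and 0.406% in synaptosomes 1, 2, 3 and old, against 0.324, 0.328, 0.326 and 0.738% in inputs 1, 2, 3 and old. Synaptosomes 1 to 3 thus lay below inputs 1 to 3, and synaptosome old below input old.

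In the N module, ND-51, homologue of the flavin-binding NDUFV1 where NADH is oxidized, had 957, 691, 616 and 1748 CPM in synaptosomes 1, 2, 3 and old, against 874, 959, 790.3 and 2177 CPM in inputs 1, 2, 3 and old. The groups overlapped, and the log2 fold change was −0.26 ± 0.46 (adjusted p 0.906). ND-24, homologue of its iron-sulphur partner NDUFV2, had 339, 209, 172 and 536 CPM in synaptosomes 1, 2, 3 and old, against 251, 336, 295 and 1140.3 CPM in inputs 1, 2, 3 and old. Its groups also overlapped, with a log2 fold change of −0.69 ± 0.56 (adjusted p 0.697).

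In the Q module, ND-30, homologue of NDUFS3, had 382, 182, 294 and 291 CPM in synaptosomes 1, 2, 3 and old, against 406, 396, 388 and 1344.6 CPM in inputs 1, 2, 3 and old. Inputs 1 to 3 of ND-30 differed by little, all synaptosome values were below them, and the log2 fold change was −1.14 ± 0.49 (adjusted p 0.297).

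ND-20, homologue of NDUFS7 with the last iron-sulphur cluster before ubiquinone, had 555, 549, 388 and 604 CPM in synaptosomes 1, 2, 3 and old, against 497, 436, 473 and 1202 CPM in inputs 1, 2, 3 and old. The groups overlapped, and its log2 fold change was −0.31 ± 0.41 with 8 libraries and 0.085 ± 0.27 without those named old. ND-23, homologue of NDUFS8, another carrier of iron-sulphur clusters, had 477, 253, 434 and 299 CPM in synaptosomes 1, 2, 3 and old, against 227, 237, 204 and 607 CPM in inputs 1, 2, 3 and old. It was the core subunit with the largest log2 fold change, 0.20 ± 0.44 with 8 libraries (adjusted p 0.925) and 0.80 ± 0.33 without those named old (adjusted p 0.223).

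The accessory members ND-39, ND-PDSW and ND-B14.5A were among the most abundant or among those with the largest fold changes. ND-39, homologue of NDUFA9 where the arms meet, had 1823, 1717, 1087 and 2072 CPM in synaptosomes 1, 2, 3 and old, against 988, 1200.2, 996 and 3782 CPM in inputs 1, 2, 3 and old. Its log2 fold change was −0.056 ± 0.48 with 8 libraries and 0.54 ± 0.29 without those named old, and it passed in neither. ND-PDSW, homologue of NDUFB10, had 1896, 491, 1186.5 and 562 CPM in synaptosomes 1, 2, 3 and old, against 628, 1154, 751 and 2355 CPM in inputs 1, 2, 3 and old. The groups overlapped, and the log2 fold change was −0.24 ± 0.54 with 8 libraries and 0.50 ± 0.50 without those named old. ND-B14.5A, homologue of NDUFA7 in the Q module, had 894, 479, 605 and 921 CPM in synaptosomes 1, 2, 3 and old, against 456, 764, 431 and 1236.5 CPM in inputs 1, 2, 3 and old. It averaged 725 ± 218 CPM in synaptosomes, against 722 ± 375 CPM in input, with a log2 fold change of 0.0052 ± 0.43.

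The other 16 tested members had log2 fold changes between −1.20 (ND-42) and −0.10 (ND-15) with 8 libraries, and between −0.98 (ND-42) and 0.67 (ND-B8) without those named old, and 0 of them passed in either fit. ND-15 overlaps several genes on the same strand, among them Gs1, CG3436 and CG11454, so its reads cannot be assigned with certainty. By module, the median log2 fold change of accessory subunits with 8 libraries was lowest, at −0.93, for the 4 of the N module and highest, at −0.32, for the 7 of the proximal membrane arm. Without the libraries named old, these medians lay between −0.39 and 0.15, again with the N module lowest and the proximal membrane arm highest. Of the 9 genes of the distal membrane arm 1 rose and 1 fell, ND-AGGG and ND-B17. These medians describe 4 to 9 genes each and were not compared by a test.

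The library input old held more complex I mRNA than the other inputs. Its level exceeded that of each of inputs 1, 2 and 3 for 33 of 33 members, where this held for 31.1% of all genes tested. The ratio of input old to the mean of inputs 1 to 3 had a median of 2.76 over the members and 0.961 over all genes, and it was over 2 for 29 of 33 members, beside 9.55% of all genes. Apart from ND-B8, described further on, the ratio ran between 1.54 for ND-15 and 3.89 for ND-19. In the fit that set input old against inputs 1 to 3, 0 of 8159 genes passed (edgeR, lowest adjusted p 0.218), while at an unadjusted p under 0.05, 23 of 33 members were higher in input old and 0 lower, beside 165 and 41 of all genes. That fit has 1 library on 1 side, assumed to vary like the other groups.

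In the library synaptosome old, the ratio to the mean of synaptosomes 1 to 3 had a smaller median, 1.29 over the members, beside 0.971 over all genes. Of the 33 members 14 were above and 4 below all of synaptosomes 1 to 3, shares near the 33.2% and 13% of all genes that were. Between the libraries named old, 32 of 33 members were lower in the synaptosome library, as were 4739 of all 8159 genes tested. The median log2 difference was −1.24 over the members, beside −0.31 over all genes, and the exception among the members was ND-AGGG at 0.51. In the fit without the libraries named old, the log2 fold change was above 0 for 18 of 33 members, beside 2870 of 8066 genes. The interaction of fraction with the word old was below 0 for 33 of 33 members, beside 3792 of 8159 genes. Its median log2 value was −1.31 over the members and 0.16 over all genes. This contrast contains the difference of input old from inputs 1 to 3, so it is not an observation apart from that one. It rests on 1 library named old in each group.

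**Figure D3:**
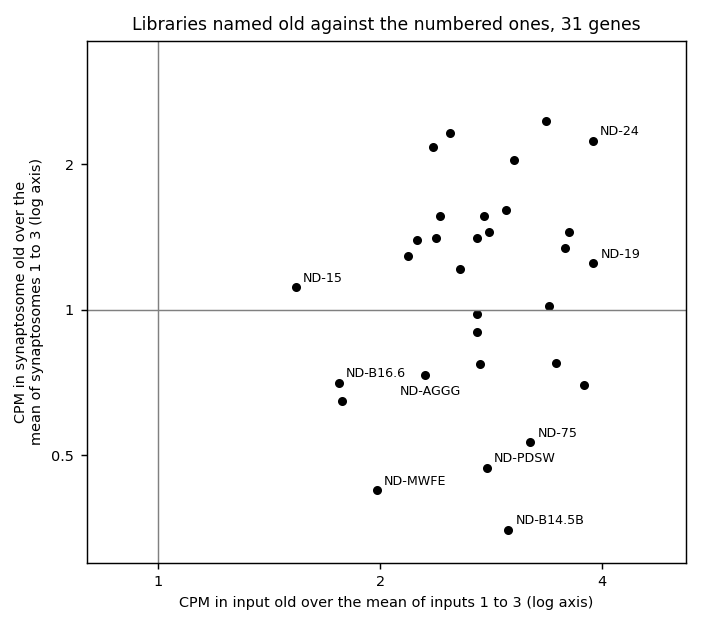
CPM in synaptosome old over the mean of synaptosomes 1 to 3 (vertical) against CPM in input old over the mean of inputs 1 to 3 (horizontal) for 31 complex I genes, both on log axes, with ND-B8 left out because its numbered libraries held few counts. All points lie right of the vertical line at 1, from 1.54 to 3.89, whereas they lie on both sides of the horizontal line at 1.

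Some markers of other cells moved with input old. Muscle markers took 0.869% of counts in input old and 0.266 to 0.678% in inputs 1 to 3. In input old 8 of 10 markers were above each of inputs 1 to 3, as were 31.1% of all genes tested. The flight muscle actin Act88F was at 2940.4 CPM in input old against 35.4 to 154 CPM in the others. Fat body markers took 1.28% in input old and 0.324 to 0.393% in inputs 1 to 3, with 5 of 5 higher, whereas neuronal markers took 0.0306% and 0.0716 to 0.127%, with 0 of 10 higher. Glial markers took 0.158% in input old and 0.200 to 0.302% in inputs 1 to 3, with 2 of 8 higher. The cuticle list, with 1 of 5 higher, was also lower in sum. For glia and cuticle these counts of higher markers are near the share of all genes. The photoreceptor share, with 5 of 11 markers higher, lay within that of inputs 1 to 3. Synaptosome old was likewise high in fat body markers, at 1.25% beside 0.0799 to 0.136% in synaptosomes 1 to 3, while its share of muscle markers, 0.288%, lay within the 0.115 to 0.306% of the others. The part of these cells in the level of complex I mRNAs was not tested.

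Summed over the members, complex I mRNAs made up 3.26, 2.73, 2.47 and 2.28% of counts in synaptosomes 1, 2, 3 and old, against 1.65, 1.86, 1.67 and 3.59% in inputs 1, 2, 3 and old. The means were 2.69 ± 0.425% in synaptosomes and 2.19 ± 0.940% in input (SD, n = 4 each). Among the numbered libraries they were 2.82 ± 0.403% in synaptosomes and 1.73 ± 0.119% in input (n = 3 each), without overlap. ND-AGGG alone made up 1.01, 1.16, 1.03 and 0.699% in synaptosomes 1, 2, 3 and old, against 0.224, 0.337, 0.191 and 0.444% in inputs 1, 2, 3 and old. With ND-AGGG left out, the numbered libraries overlapped, at 2.26, 1.57 and 1.45% in synaptosomes 1 to 3, against 1.42, 1.53 and 1.48% in inputs 1 to 3, and the libraries named old were at 1.59% in synaptosomes, against 3.15% in input. With ND-AGGG, ND-B14.5B and ND-MWFE left out, the other members made up 1.46, 1.18, 1.001 and 1.40% in synaptosomes 1, 2, 3 and old, against 1.29, 1.39, 1.34 and 2.88% in inputs 1, 2, 3 and old. These 3 genes were left out for their fold changes, which by itself makes the difference smaller.

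**Figure D4:**
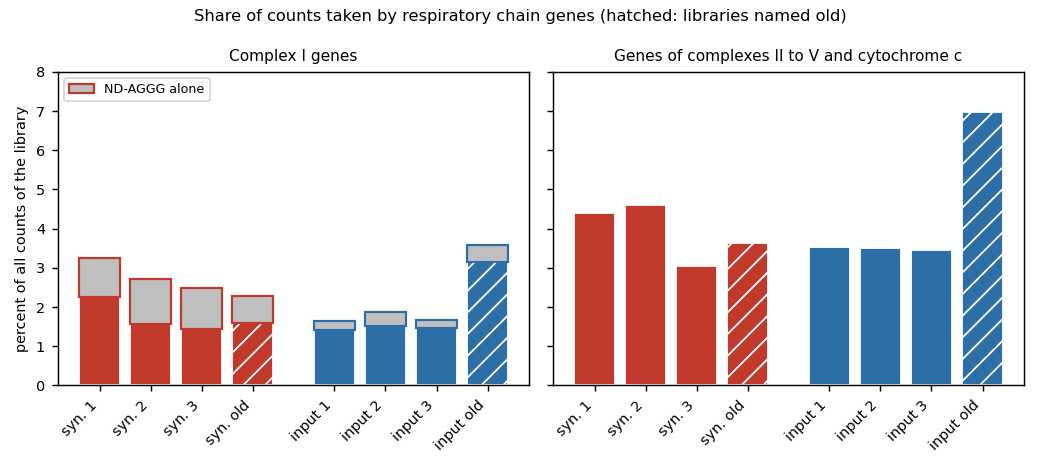
Percent of all counts of each library that fell on complex I genes (left panel, with ND-AGGG in grey on top) and on genes of complexes II to V and cytochrome c (right panel), synaptosome libraries in red and input libraries in blue, the libraries named old hatched. Input old has the tallest bar in both panels, 3.59% and 6.99%.

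Among the numbered libraries the members varied more between synaptosomes than between inputs. The coefficient of variation over synaptosomes 1 to 3 had a median of 41.9% over the 33 genes, against 12.8% over inputs 1 to 3, and it was larger in synaptosomes for 31 of 33. Over all genes the medians for these libraries were 88.6% in synaptosomes and 29.6% in input. With the libraries named old included, the order turned for the members, at 45.1% in synaptosomes and 61.5% in input, and not for all genes, at 91.4% and 36.9%. The order of the members by level was kept between libraries, with Spearman correlations of 0.805 to 0.901 between synaptosomes 1 to 3 and of 0.945 to 0.984 between inputs 1 to 3.

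The genes with the largest fold changes were short, ND-AGGG, ND-B14.5B and ND-MWFE having coding lengths of 282, 348 and 369 bases. ND-MLRQ (249 bases) and ND-B8 (285 bases), also short, had log2 fold changes of −0.32 and −0.98 with 8 libraries. Without the libraries named old they had 0.014 and 0.67, and ND-B8 had few counts. With 8 libraries the median was −0.32 for the 3 members of up to 300 bases. It was −0.38, −0.54 and −0.37 for those of up to 450, up to 900 and over 900 bases. Without the libraries named old these medians were 0.67, 0.041, 0.085 and −0.25. Over all genes of up to 300 bases the median was 0.62 with 8 libraries and 0.71 without those named old. In the longer bands of all genes it was −0.18, −0.37 and −0.41 with 8 libraries. Over the members the Spearman correlation of coding length with the log2 fold change was −0.223 with 8 libraries and −0.297 without those named old. It was −0.0897 and −0.11 over all tested genes, and −0.538 and −0.507 over the tested genes of complexes II to V and cytochrome c. The part of coding length in these fold changes was not tested. ND-18 and ND-13B, with coding lengths of 549 and 372 bases, were among the members with the smallest fold changes. These correlations are across genes of the same libraries, which are not independent replicates.

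ND-B8, homologue of NDUFA2 in the N module, was singled out after its values were seen. It had 114, 0, 0 and 847 counts in synaptosomes 1, 2, 3 and old, against 21, 82, 77 and 3250 counts in inputs 1, 2, 3 and old. In CPM this was 26.6, 0, 0 and 99.3 in synaptosomes 1, 2, 3 and old, against 2.36, 8.86, 5.78 and 235 in inputs 1, 2, 3 and old. The libraries named old were the highest of each group, and 3 counts in synaptosomes 2 and 3, the level that a count of 0 allows, correspond to 2.63 and 2.12 CPM, so that a level like that of input 1 lies near what this depth can show. At −0.98 ± 1.63 its log2 fold change had an adjusted p of 0.898. ND-51L1, a paralog of the core subunit ND-51, was the member removed by the filter on low counts: it had 17 counts, all in input 2, and it overlaps Smurf on the same strand.

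Other respiratory genes were also higher in input old. Of 38 tested genes of complexes II to V and cytochrome c, 34 were higher in input old than in each of inputs 1 to 3, beside 31.1% of all genes. The median ratio of the 38 was 2.77, beside 0.961 over all genes. The summed share of counts of these complexes was 4.41, 4.59, 3.06 and 3.64% in synaptosomes 1, 2, 3 and old, against 3.54, 3.50, 3.46 and 6.99% in inputs 1, 2, 3 and old. With 8 libraries 0 of 38 rose and 2 fell, SdhA, the flavin subunit of complex II (log2 fold change −1.87 ± 0.45, adjusted p 0.049), and UQCR-C1, a core protein of complex III (−1.79 ± 0.46, adjusted p 0.049). Of all genes 0.944% were called higher and 4.13% lower. At an unadjusted p under 0.05, 2 of the 38 were higher and 8 lower, beside 4.44% and 9.85% of all genes. DESeq2 called 2 higher and 3 lower, beside 3.16% and 7.18% of all genes. The median log2 fold change of the 38 was −0.48, like that of complex I.

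Without the libraries named old, 3 of 37 rose, the small complex III subunits UQCR-6.4, UQCR-11 and ox, with log2 fold changes of 1.74, 2.01 and 1.96. Then 3 fell, SdhA, RFeSP and ATPsynbeta, with −1.79, −1.09 and −1.24, and the median was −0.17. Of all genes 1.72% rose and 6.14% fell in that fit, with a median of −0.48. The difference between complex I and the other complexes was not tested. Of 4 tested assembly factors of complex I, sicily, ECSIT, CIA30 and CG11722, 0 passed in either direction, also at an unadjusted p under 0.05 with 8 libraries, and 0 by DESeq2. NP15.6, a complex I subunit gene without the ND prefix, had a log2 fold change of 0.39 with 8 libraries and 0.85 without those named old, and passed in neither.

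The second count table gives the 3′ ends of each gene apart. It listed 76 ends of the 34 members, of which 70 had a count, and 15 members had 1 end with counts whereas 19 had 2 or more. Of 48 ends tested with 8 libraries, 1 was called higher and 2 lower, beside 0.732% and 6.46% of all 11062 ends tested. The higher end was the main end of ND-AGGG (log2 fold change 1.50 ± 0.40, adjusted p 0.0428), and the lower ones were the main end of ND-B17 (−2.31 ± 0.53, adjusted p 0.039) and a minor end of ND-B16.6. Without the libraries named old, 2 of 47 ends were called higher, those of ND-AGGG and ND-B14.5B, and 2 lower, the main end of ND-B17 and another minor end of ND-B16.6, beside 1.34% and 14.5% of all ends.

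ND-B16.6, homologue of NDUFA13 (GRIM-19 in mammals), had 3 ends with counts in these libraries. Its end numbered 4 held 37, 18, 13 and 116 counts in synaptosomes 1, 2, 3 and old, against 581, 425, 640 and 911 counts in inputs 1, 2, 3 and old. As a share of the gene's counts this was 3.06, 5.84, 4.59 and 7.68% in synaptosomes 1, 2, 3 and old, against 20.4, 12.2, 13.9 and 10.8% in inputs 1, 2, 3 and old. All synaptosome shares lay below all input shares, with means of 5.30 ± 1.96% in synaptosomes and 14.3 ± 4.25% in input, and the log2 fold change of this end was −2.40 ± 0.64 (adjusted p 0.0409). Without the libraries named old it was −2.42, with an adjusted p of 0.0545.

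The end numbered 9 of the same gene held 0, 0, 0 and 215 counts in synaptosomes 1, 2, 3 and old, against 156, 155, 98 and 274 counts in inputs 1, 2, 3 and old. It thus took 14.2% of the gene's counts in synaptosome old and had no count in the other synaptosome libraries. In the test of end use within genes (edgeR diffSpliceDGE), 0 of 11 members with 2 or more tested ends passed with 8 libraries, and 0 of 11 had an unadjusted p under 0.05, beside 3.56% of all genes passing. Without the libraries named old 1 of 11, ND-B16.6, passed (adjusted p 0.0311). Over all genes 9.1% passed in that fit, the same share, so that this count says nothing particular about the members. The count table numbers ends without coordinates, so which end lies further from the stop codon is not given in the sources used here. The gene overlaps CG3847 on the opposite strand.

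**Figure D5:**
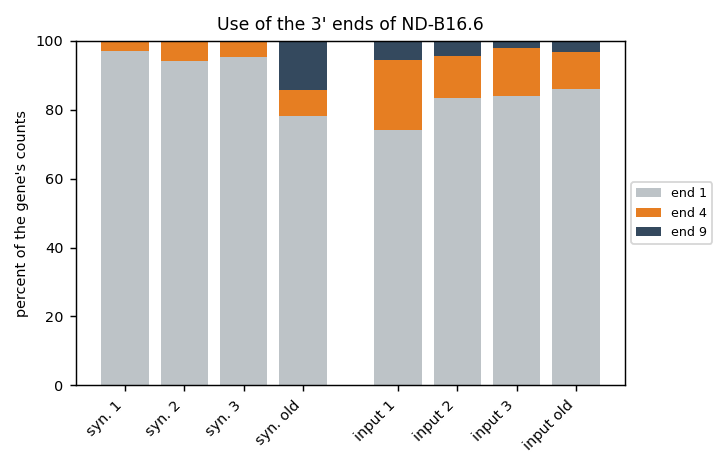
Percent of the counts of ND-B16.6 that fell on each of its 3′ ends in each library, synaptosome libraries at the left. End 4 (orange) takes 3.06 to 7.68% in synaptosomes and 10.8 to 20.4% in input, and end 9 (dark) is seen in synaptosome old and in all inputs.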

How the data were processed

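Head synaptosomes and head homogenate were sequenced at polyadenylated 3′ ends. Per the study's methods and submitters' notes, fastp trimmed the reads and STAR 2.6.1b aligned them to dm6, and the authors then masked internal priming and joined 3′ peaks near known ends into clusters. The deposited tables hold raw counts of genes and of single 3′ ends, and a deposited list gives the coordinates of known 3′ ends, which served only to count known ends per gene. Reads were counted without molecular identifiers, so floors cover counting error only. Masking and the match to known ends remove other ends. The authors' own comparison, made with DESeq2 per gene and per end, was not used. Columns 1 to 3 were matched to titles and those named old to their group only.

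Symbols, coordinates (1-based) and coding lengths came from a reference annotation of the dm6 assembly. Of the gene identifiers, 82 had no symbol. Counts were analysed in R 4.3.3 with edgeR 4.0.16: filterByExpr, TMM scaling, and the robust quasi-likelihood test of synaptosome against input without covariates on all 8 libraries, with Benjamini-Hochberg adjustment over all genes (8159) or ends (11062) and a threshold of 0.05. The SE of a log2 fold change is its absolute value over the square root of F. The scripts were tested on simulated data. Floors used 3 counts. Alternatives were DESeq2 1.42.0, other scalings and filters, thinning, a term for the libraries named old, a replicate block, and leaving out libraries. Named with values were members called, the 5 of highest input level, the 5 largest and 5 smallest fold changes among members with a mean count of at least 50, the 7 core subunits and members filtered out. The values of 1 core subunit are not reported here. Members and lists were chosen with earlier results of these data known.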

Additional observations from a re-analysis of the deposited data

Results flagged for a closer look

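In groups of 4 libraries, a value was singled out where its gap to the nearest library, divided by the range, exceeded Dixon's 95% critical value, which chance exceeds in about 1 in 20 groups. Of 66 combinations of a tested member and a group, 24 exceeded it, and the library was input old in 22 of them. Among the members named with values, input old stood apart by this measure for 9. Its level was 1140.3 CPM for ND-24, 2177 CPM for ND-51, 1344.6 CPM for ND-30, 1202 CPM for ND-20 and 607 CPM for ND-23 among the core subunits. Among the accessory subunits it was 3782 CPM for ND-39, 772 CPM for ND-B17, 399 CPM for ND-B18 and 397 CPM for ND-18. The same library stood apart in the share of counts of complex I, 3.59%, and of complexes II to V with cytochrome c, 6.99%. These values are not independent of each other, since they come from 1 library. What sets this library apart from the other inputs was not tested.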

How the results depend on the processing

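The 17 alternatives moved the number of members called from 1 higher and 1 lower to between 0 and 2 higher and between 0 and 1 lower. ND-AGGG and ND-B17 were both called with DESeq2, median-of-ratios size factors, library totals alone, thinning and without synaptosome old, and neither was called without a filter on low counts or when any other library was left out. ND-AGGG passed in 7 of 17 alternatives (log2 fold change 1.50 to 2.16, adjusted p 0.00228 to 0.131) and ND-B17 in 7 of 17 (−2.42 to −1.64, adjusted p 0.00326 to 0.130). The median log2 fold change of the members ran from −0.73 without synaptosome 1 to 0.16 without input old, and was 0.036 without both libraries named old.

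Unfiltered, 0 genes were called higher and 0 lower, and 1 end lower. Keeping mean counts of 100 or more, 0 genes and 0 ends were lower. Without both libraries named old, 2 genes and 2 ends were higher, 0 genes were lower and 1 gene differed in end use, and the difference in the share of counts, synaptosome minus input, was 1.10 percentage points. With a term for those libraries, 0 genes were higher and 4 ends lower. DESeq2 called 2 ends higher. Median-of-ratios factors, library totals and thinning each left 1 end lower. Leaving out single libraries gave 0 to 1 gene higher, 0 to 1 lower, 0 to 1 end higher, 0 to 6 ends lower, 0 to 1 gene with different end use and a difference in the share of counts of 0.302 to 0.961 points. Over all genes, calls were 182 higher and 984 lower without synaptosome old. They ran from 0 to 12 higher and from 1 to 20 lower when any other single library was left out. With DESeq2 they were 281 higher and 639 lower, and unfiltered 50 and 50, against 77 and 337 in the main fit.

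Signs turned for no called member. Without both libraries named old 18 of 33 fitted values were above 0, against 5 with all 8 libraries, with ND-B8 at 0.67 against −0.98 and ND-19 at 0.15 against −0.54. ND-39 was at 0.056 with DESeq2, with median-of-ratios factors and with mean counts of 100 or more, 0.0023 with library totals, 0.015 with thinning, 0.54 without both libraries named old and 0.20 with a term for them. ND-PDSW was at 0.50 and ND-20 at 0.085 without both libraries named old, and ND-B14.5A at −0.0067 unfiltered. Over single libraries left out, the range was −0.20 to 0.65 for ND-39, −0.72 to 0.29 for ND-PDSW, −0.67 to 0.19 for ND-51, −0.14 to 0.39 for ND-B14.5A, −1.08 to 0.091 for ND-24 and −0.47 to 0.16 for ND-20, each highest without input old.

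Per the study's methods, input was taken from the homogenate that was then fractionated, so a synaptosome library may have its own input. Deviations from the group means of same-numbered libraries correlated at 0.00255, 0.0394 and −0.0179, and those of the libraries named old at 0.25. Such values cannot tell whether libraries were paired, since synaptosome libraries themselves correlated only at r from 0.597 to 0.622. With the replicate block, 0 members were called higher and 1, ND-B17, lower, ND-AGGG was at 1.81 (adjusted p 0.0599) and ND-39 at 0.17. Synaptosome 2, the shallowest library, limits what can be seen of members with few counts such as ND-B8.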
